A study of Mus musculus with 6 samples.

Results

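The genes described here control how bone cells handle phosphate, pyrophosphate and matrix vesicles. They were chosen by name, and the 10 genes are Alpl, Enpp1, Ank, Phospho1, Smpd3, Slc20a1, Slc20a2, Phex, Fgf23 and Fam20c. Each matched 1 of the 23700 gene entries listed for every library. RNA sequencing was performed on IDG-SW3 cells, a mouse line from long bones that carries a temperature-sensitive T-antigen for growth and GFP under the Dmp1 promoter, and that matures in culture toward an osteocyte-like cell. All cells were differentiated for 28 days in medium holding β-glycerophosphate (4 mM), itself a source of phosphate, and ascorbic acid (50 µg/ml). PTH cells (n = 3) then received 50 nM bovine PTH (1-34), the active fragment of parathyroid hormone, for 24 hours, and Control cells (n = 3) received PBS. The samples were wells of 1 cell line and no source says that they were independent cultures. The p-values therefore cover well-to-well spread alone, and this may be technical.

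Mineral forms when phosphate is released near collagen and pyrophosphate, which blocks crystal growth, is removed. ENPP1 makes pyrophosphate outside the cell, ANK exports it, and the alkaline phosphatase encoded by Alpl cleaves it. PHOSPHO1 releases phosphate inside matrix vesicles, the small particles in which mineral starts, and osteocytes govern phosphate in the whole body through PHEX, FAM20C and the hormone FGF23.

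Levels are FPKM as deposited, that is, fragments scaled to transcript length and to the mapped fragments of the library. The number of fragments that the deposited error bounds imply was 22437700 to 24442600 in PTH libraries and 13936600 to 19015400 in Control libraries, so every PTH library was deeper. Pearson's r of log2(FPKM + 1) across tested entries ranged over 0.880 to 0.892 for a PTH with a Control library and over 0.957 to 0.965 inside a group, where genes are not independent replicates. The collagen genes Col1a1 and Col1a2 are marked in Control as too deep to be estimated, are listed there at 0, and entered no fit. Groups were compared with limma on log2(FPKM + 1) over the 11864 entries with a mean of at least 1 FPKM, with a call wherever the Benjamini-Hochberg adjusted p stayed under 0.05. The median change over these entries was 0.15, so a change of that size is the middle of the distribution. Of the cell identity markers, Dmp1, Sost, Mepe and Phex were present in Control and fell in PTH, whereas Fgf23 was close to 0 in both groups. Phex and Fgf23 are themselves among the genes described here, so for these genes the marker values are no separate evidence. Endothelial markers summed to 0.0722 to 0.127 FPKM in PTH and 0.0334 to 0.106 FPKM in Control. Of 8 macrophage and osteoclast markers 3 were tested. Cd68 rose (2.20 ± 0.52 FPKM in PTH and 1.02 ± 0.16 in Control), Ctsk rose (306 ± 5.44 FPKM in PTH and 263 ± 6.71 in Control) and Acp5 fell (1.78 ± 0.56 FPKM in PTH and 3.04 ± 0.47 in Control). The list summed to 305 to 316 FPKM in PTH and 261 to 274 FPKM in Control, while Emr1 was listed at 0 in all libraries and Ptprc at 0 in PTH and at most at 0.016 FPKM in Control. The part of these cells in the results was not tested.

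The 10 genes split into a group that fell steeply, a group that rose less than 2-fold and Alpl, which was not called. Smpd3, Phospho1, Phex and Fam20c were lower in PTH, and Slc20a1, Enpp1, Slc20a2 and Ank were higher. Fgf23 was below the filter and was not tested. Of the 9 genes tested, 8 were called, 4 higher and 4 lower, where 73.8% of all entries were called (50.3% higher and 23.5% lower). The 8 called genes had no overlap between the groups, as did 78.2% of all entries (53.2% higher and 25.1% lower). A log2 change of at least 1 was called for 4.84% of all entries downward and for 4.43% upward. All 4 falls were of that size and none of the 4 rises was. The median change of the 9 genes was -0.0044, against 0.15 over all entries, and says little because the changes lie on both sides of it. In RNA from whole wells, fewer cells that express a gene and less of its RNA per cell cannot be told apart.

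**Figure D1:**
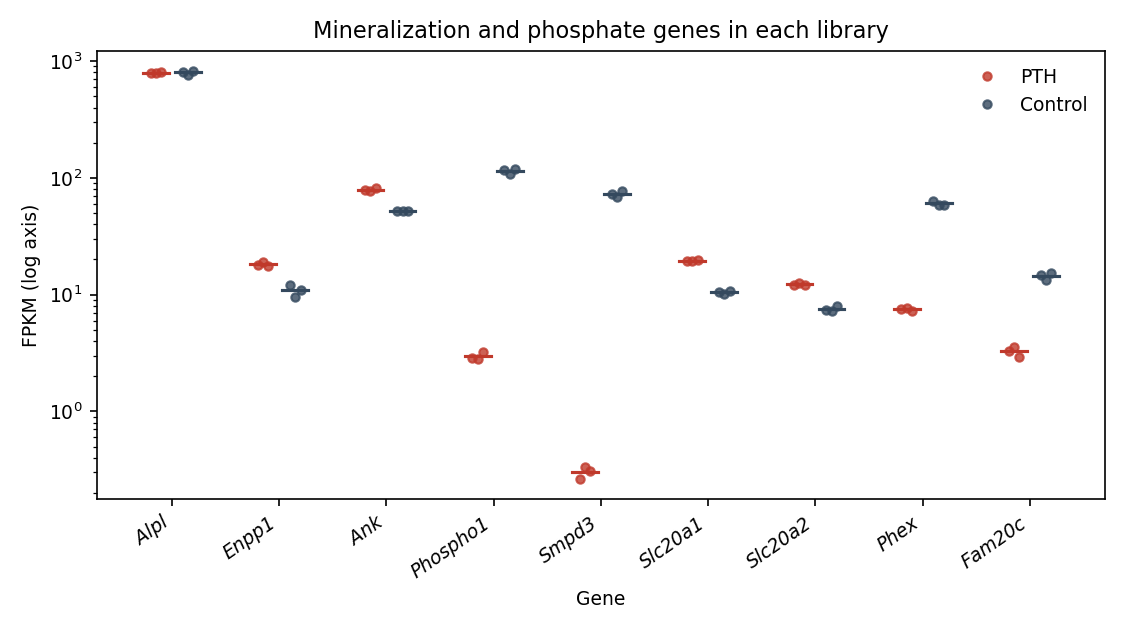
FPKM on a log axis for the 9 genes above the filter, with 1 point per library (PTH, red, n = 3, and Control, grey, n = 3) and a bar at each group mean. Alpl lies near 800 FPKM in both groups, whereas Smpd3 averages 0.303 FPKM in PTH and 72.8 FPKM in Control.

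The core of the cyclic AMP response element was looked for because the PTH receptor signals through cyclic AMP. Promoter sequences are shown only for called genes that hold this core, so that they share it follows from the choice. RefSeq windows on GRCm38.p6, from 250 bases before to 50 bases after each transcript start, were matched for 8 of the 10 genes (not Slc20a2 and Smpd3) and gave 10 windows. The core TGACG or its reverse complement CGTCA lay in 8 of the 10 windows and was also in 20.8% of all 32851 windows. It was found for 7 of the 8 genes, namely Enpp1 and Slc20a1, which rose, Phospho1, Phex and Fam20c, which fell, Alpl, which was not called, and Fgf23, which was not tested. Ank, which rose, had none. The 20.8% counts windows, and the share over all genes was not computed. The full element TGACGTCA, which contains the core, was in none of the 10 windows and in 1.79% of all windows. The RUNX core TGTGGT (either strand) was found for Enpp1 and Slc20a1 and in 16.8% of all windows, and the homeodomain core TAATTG (either strand) for Phex and in 8% of all windows. These matches describe letters and do not show a site of binding. The 250 bases before the start follow, 5′ to 3′ on the gene's strand, with the core in capitals. Enpp1 is chr10:24712160-24712409 (minus strand), Slc20a1 chr2:129198523-129198772 (plus strand, the first of its 2 listed starts), Phospho1 chr11:95824250-95824499 (plus strand), Phex chrX:157415287-157415536 (minus strand) and Fam20c chr5:138754831-138755080 (plus strand).
Enpp1: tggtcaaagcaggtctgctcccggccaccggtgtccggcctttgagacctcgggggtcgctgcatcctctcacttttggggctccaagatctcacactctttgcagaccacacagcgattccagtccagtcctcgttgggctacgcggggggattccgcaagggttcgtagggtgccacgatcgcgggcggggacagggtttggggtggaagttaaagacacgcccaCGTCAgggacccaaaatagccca
Slc20a1: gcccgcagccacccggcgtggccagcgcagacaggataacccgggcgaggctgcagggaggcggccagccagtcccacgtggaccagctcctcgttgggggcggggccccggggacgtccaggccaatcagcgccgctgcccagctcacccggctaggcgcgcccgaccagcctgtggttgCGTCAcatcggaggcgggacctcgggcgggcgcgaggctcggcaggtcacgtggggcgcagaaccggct
Phospho1: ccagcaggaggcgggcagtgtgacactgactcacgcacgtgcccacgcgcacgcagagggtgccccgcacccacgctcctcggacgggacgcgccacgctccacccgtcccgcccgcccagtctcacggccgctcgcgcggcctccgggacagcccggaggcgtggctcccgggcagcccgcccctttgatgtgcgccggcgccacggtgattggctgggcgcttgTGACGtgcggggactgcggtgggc
Phex: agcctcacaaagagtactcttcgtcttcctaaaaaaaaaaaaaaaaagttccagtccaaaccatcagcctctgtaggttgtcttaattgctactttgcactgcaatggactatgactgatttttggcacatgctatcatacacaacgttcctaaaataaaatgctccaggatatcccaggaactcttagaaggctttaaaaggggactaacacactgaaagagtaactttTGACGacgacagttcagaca
Fam20c: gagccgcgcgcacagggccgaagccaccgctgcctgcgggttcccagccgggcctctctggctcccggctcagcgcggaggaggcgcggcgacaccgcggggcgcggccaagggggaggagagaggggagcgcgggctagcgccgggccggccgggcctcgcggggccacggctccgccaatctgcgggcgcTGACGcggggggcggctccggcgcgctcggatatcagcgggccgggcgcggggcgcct
The core starts 23 bases before the start in Enpp1, 69 in Slc20a1, 24 in Phospho1, 20 in Phex and 58 in Fam20c.

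The gene that removes pyrophosphate was not called, while those that supply it rose. Alpl (chromosome 4, 137297647 to 137352292, mm9) had 794, 796 and 800 FPKM in the PTH libraries, against 811, 767 and 820 FPKM in the Control libraries. The PTH values lay inside the Control range, and Alpl stood above 99.6% to 99.7% of entries, tested or below the filter, in every library. The means were 796 ± 2.88 FPKM in PTH and 799 ± 28.2 FPKM in Control (SD, n = 3 each, as for every mean given here), a change of -0.0044 ± 0.039 (SE) with a limma adjusted p of 0.926. Rescaling of the libraries changed this, as Alpl was called lower after rescaling to TPM (-0.074, limma adjusted p = 0.0251), by median of ratios (-0.17, limma adjusted p = 0.000975) and by quantiles (-0.13, limma adjusted p = 0.00702).

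Enpp1 (chromosome 10, 24361217 to 24431908) had 17.99, 19.1 and 17.7 FPKM in PTH and 12.2, 9.54 and 10.9 FPKM in Control. Every PTH library was above every Control library, although Enpp1 had the widest spread of the 9 tested genes in Control (coefficient of variation 12.2%, against 0.330% for Ank). The ratio of means was 1.68 and the change 0.70 ± 0.082 (SE, limma adjusted p = 0.000273). Ank (chromosome 15, 27396432 to 27524662) had 78.5, 76.9 and 82.2 FPKM in PTH and 52.2, 52.3 and 52.0 FPKM in Control. The groups were again apart, with a ratio of 1.52 and a change of 0.59 ± 0.033 (SE, limma adjusted p = 7.52e-06).

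Because a ratio of 2 genes in the same library does not depend on its scaling, the RNA levels of Enpp1 and Ank relative to Alpl were also read within libraries. Enpp1 was at 0.0229 ± 0.00097 of the Alpl level in PTH and at 0.0136 ± 0.0013 in Control, a difference of 0.76 in log2. Ank was at 0.0995 ± 0.0031 of the Alpl level in PTH and at 0.0653 ± 0.0025 in Control, a difference of 0.61 in log2. In both pairs every PTH library exceeded every Control library. The exact two-sided permutation p was 0.1 for each of the 6 pairs examined, and 0.1 after Benjamini-Hochberg adjustment, which is the smallest value that 3 against 3 libraries can give.

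**Figure D2:**
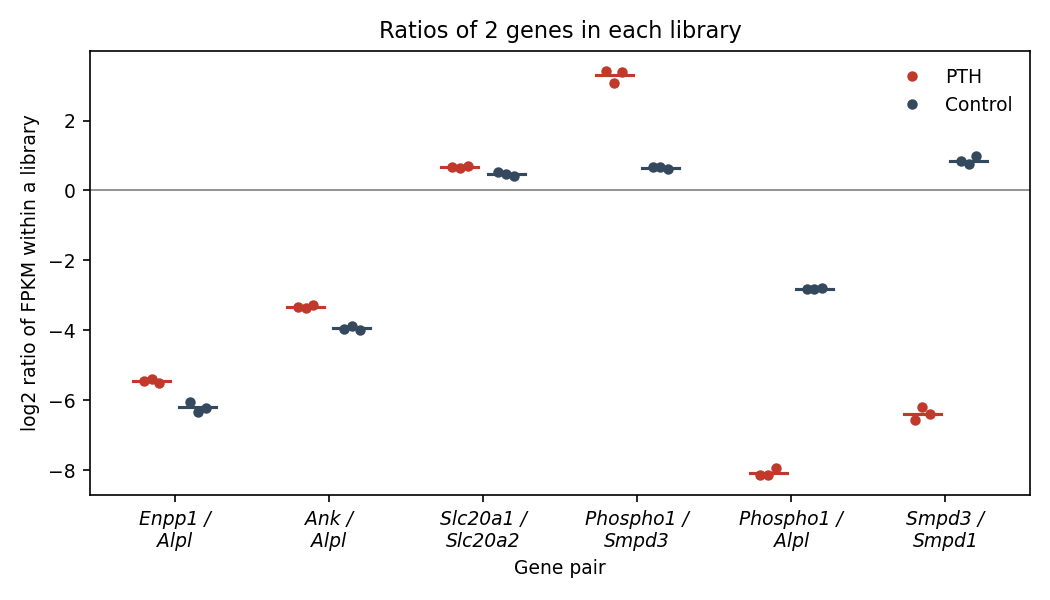
The log2 ratio of the FPKM of 2 genes in the same library for 6 pairs, with 1 point per library (PTH, red, n = 3, and Control, grey, n = 3) and a bar at each group mean. The groups are apart in all 6 pairs, least for Slc20a1 over Slc20a2 (0.20 in log2) and most for Smpd3 over Smpd1 (-7.24 in log2).

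Other genes of pyrophosphate and adenosine handling moved in both directions. Of 6 listed, 5 were tested, 3 rose and 2 fell, with a median of 0.34 against 0.15 over all entries, and Abcc6 was below the filter. Slc29a1, which encodes a nucleoside transporter that carries adenosine, had 157, 155 and 160 FPKM in PTH and 65.4, 60.2 and 66.8 FPKM in Control (change 1.28, limma adjusted p = 9.05e-07). Enpp3, a relative of Enpp1 that lies close to it on chromosome 10 (24493620 to 24556001), rose to 2.24 ± 0.13 FPKM in PTH, against 0.389 ± 0.0095 in Control. Nt5e, whose enzyme makes adenosine from AMP outside the cell, fell to 9.18 ± 0.40 FPKM in PTH, against 13.1 ± 0.45 in Control. Ppa1, a cytosolic pyrophosphatase, fell to 57.5 ± 2.34 FPKM, against 89.9 ± 2.25 in Control.

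Of the 9 tested genes, Smpd3 and Phospho1 had the largest falls. Smpd3 encodes neutral sphingomyelinase 2, which cleaves sphingomyelin at the membrane and whose loss in mice leaves bone poorly mineralized. It lies at chromosome 8, 108776448 to 108861888, and had 0.266, 0.332 and 0.311 FPKM in PTH and 72.6, 68.1 and 77.7 FPKM in Control. Its level stood above 44.8% to 45.7% of entries in the PTH libraries and above 96.0% to 96.3% in the Control libraries. These shares also count the entries below the filter of 1 FPKM, and Smpd3 in PTH was itself under 1 FPKM. The change was -5.82 ± 0.053 (SE, limma adjusted p = 8.85e-09), and 5 of the 11864 entries, Smpd3 included, fell by as much on the log2(FPKM + 1) scale. This rank depends on the pseudocount, as the change of Smpd3 was -7.50 with 0.1 in place of 1. The PTH values rest on 135 implied fragments in all, against 24892 in Control. Scaled for depth, the level in PTH was 0.00414 of that in Control (exact 95% binomial interval 0.00347 to 0.00490, which covers counting error only).

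Phospho1 encodes a phosphatase that frees phosphate from phosphocholine and phosphoethanolamine inside vesicles. It had 2.84, 2.82 and 3.24 FPKM in PTH and 116, 109 and 119 FPKM in Control, so that the ratio of Control to PTH was 38.6. The change was -4.86 ± 0.055 (SE, limma adjusted p = 1.29e-08), and 13 of the 11864 entries, Phospho1 included, fell by as much on that scale. The Phospho1 locus (chromosome 11, 95685814 to 95693454) shares 2069 of its 7641 bases with Abi3 (95691386 to 95703790), an adaptor gene of the actin machinery that GENCODE places on the opposite strand. Abi3 had 1.94, 2.06 and 2.17 FPKM in PTH and 77.4, 70.3 and 79.9 FPKM in Control (change -4.65, limma adjusted p = 1.47e-08). The library kit does not mark strand, so fragments from the shared stretch cannot be assigned to either gene, and how much of each fall is its own was not tested.

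Smpd3 lost more than Phospho1, by a margin that depends on the pseudocount. Phospho1 was at 10.7, 8.47 and 10.4 times the Smpd3 level in PTH libraries, against 1.59, 1.60 and 1.53 times in Control libraries, a difference of 2.64 in log2 (exact two-sided permutation p = 0.1). With 1 added to both genes the difference was 0.96 in log2. Fragments shared with Abi3 may enter the Phospho1 level here too. The fall of Smpd3 was also not shared by its lysosomal relative to the same extent. Smpd1, which encodes acid sphingomyelinase, fell to 25.2 ± 0.99 FPKM in PTH, against 40.2 ± 0.63 in Control. The relatives Smpd2 and Smpd4 were instead called higher in PTH. Their changes were 0.26 for Smpd2 (limma adjusted p = 0.0323) and 0.23 for Smpd4 (limma adjusted p = 0.00117), close to the 0.15 of all entries. Smpd3 was at 0.0120 ± 0.0017 of the Smpd1 level in PTH and at 1.81 ± 0.14 times in Control, and the groups did not overlap (exact two-sided permutation p = 0.1).

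Of 11 further genes of sphingomyelin, choline and vesicle biology all were tested, 6 fell, 4 rose and Chkb was not called (median -0.44). Sgms2, which encodes a sphingomyelin synthase of the plasma membrane, had 5.57, 5.50 and 5.55 FPKM in PTH and 147, 145 and 144 FPKM in Control (change -4.48, limma adjusted p = 2.72e-09). Both the gene that makes sphingomyelin at the membrane and the gene that cleaves it there were thus lower in PTH. Sgms1, the Golgi synthase gene, was higher, at 10.1 ± 0.53 FPKM in PTH and 6.70 ± 0.43 in Control (limma adjusted p = 0.000167). Enpp6, which encodes a choline phosphodiesterase, fell to 0.645 ± 0.070 FPKM, against 6.996 ± 0.65 in Control. Annexin genes of matrix vesicles were called in both directions. Anxa6 fell to 45.0 ± 1.71 FPKM, against 91.6 ± 6.36 in Control, and Anxa5 to 174 ± 2.42 FPKM, against 236 ± 8.06. Anxa2, the most abundant of them, rose to 734 ± 6.76 FPKM, against 573 ± 21.2 in Control.

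Both type III sodium-phosphate cotransporters, which bring phosphate into the cell, rose. Slc20a1, the gene of PiT-1 (chromosome 2, 129024509 to 129037348), had 19.4, 19.5 and 19.7 FPKM in PTH and 10.5, 10.2 and 10.7 FPKM in Control. It had the largest rise of the 9 tested genes, with a ratio of 1.86 and a change of 0.84 ± 0.031 (SE, limma adjusted p = 1.16e-06). Of all entries 93.4% had a lower change. Slc20a2, the gene of PiT-2 (chromosome 8, 23587172 to 23680088), had 12.1, 12.5 and 12.1 FPKM in PTH and 7.32, 7.29 and 8.06 FPKM in Control, a ratio of 1.62 and a change of 0.63 ± 0.044 (SE, limma adjusted p = 2.21e-05). The groups did not overlap for either gene. At its lower coordinate 180 bases of Slc20a2 overlap the entry AI316807, which was not called (9.70 ± 1.57 FPKM in PTH and 7.77 ± 0.99 in Control, limma adjusted p = 0.0743).

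The sum of both transporters was 31.8 ± 0.20 FPKM in PTH and 18.05 ± 0.69 FPKM in Control. Slc20a1 was at 1.60, 1.56 and 1.63 times the Slc20a2 level in PTH and at 1.44, 1.40 and 1.33 times in Control. The balance thus moved toward Slc20a1 in each PTH library, by 0.20 in log2 (exact two-sided permutation p = 0.1). Among other phosphate transport genes 2 of 5 were tested. Slc25a3, the mitochondrial phosphate carrier gene, rose to 166 ± 4.55 FPKM, against 138 ± 4.66 in Control, a change of 0.26 that is close to the 0.15 of all entries. Xpr1, the gene of a phosphate exporter, was called lower by a small margin, at 8.23 ± 0.32 FPKM in PTH and 8.90 ± 0.058 in Control (limma adjusted p = 0.0383), and the call was lost when any library other than PTH replicate 3 was left out, at a limma adjusted p of up to 0.102. Rescaling enlarged the change of Xpr1, to -0.16 with TPM (limma adjusted p = 0.00778), -0.21 with quantile scaling (limma adjusted p = 0.00144) and -0.25 with median of ratios (limma adjusted p = 0.000753). The kidney-type cotransporter genes Slc34a1, Slc34a2 and Slc34a3 were below the filter.

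Of the genes through which osteocytes govern systemic phosphate, Phex and Fam20c fell and Fgf23 could not be tested. Phex, an endopeptidase gene whose loss causes X-linked hypophosphatemia, lies at chromosome X, 153596618 to 153853218. It had 7.54, 7.68 and 7.30 FPKM in PTH and 63.9, 58.2 and 59.1 FPKM in Control, so that the level in PTH was 0.124 of that in Control. The change was -2.85 ± 0.043 (SE, limma adjusted p = 3.39e-08), and 85 of the 11864 entries, Phex included, fell by as much on the log2(FPKM + 1) scale. Fam20c, which encodes the Golgi kinase that phosphorylates secreted matrix proteins and FGF23, lies at chromosome 5, 139231035 to 139286017. It had 3.29, 3.59 and 2.90 FPKM in PTH and 14.8, 13.4 and 15.3 FPKM in Control, with a ratio of Control to PTH of 4.44. The change was -1.86 ± 0.074 (SE, limma adjusted p = 1.63e-06), and no PTH library reached a Control library for either gene.

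Fgf23, the hormone gene that lowers renal phosphate reabsorption (chromosome 6, 127022920 to 127031426), was at the limit of detection. It was listed at 0 in all 3 PTH libraries, and at 0.0245, 0 and 0 FPKM in the Control libraries. The Control value is that of 1 fragment. A count of 0 allows up to 3 fragments. These would be 0.0593 to 0.0644 FPKM in a PTH library and 0.0771 to 0.0967 FPKM in the Control libraries with a count of 0. Fgf23 was thus near 0 in both groups, and a difference within these limits was not detectable at this depth.

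Genes of FGF23 processing, of its receptors and of vitamin D, taken as 1 list, did not follow a common direction. Of 8 listed 5 were tested, 4 rose and 1 fell (median 0.70), and Kl, Cyp27b1 and Cyp24a1 were below the filter. Galnt3, which encodes the glycosyltransferase that protects FGF23 from cleavage, fell to 0.958 ± 0.28 FPKM in PTH, against 18.9 ± 0.39 in Control (change -3.35, limma adjusted p = 4.85e-07). Furin, the gene of a protease that can cleave FGF23, rose to 46.4 ± 0.68 FPKM, against 28.2 ± 1.83 in Control, and Pcsk5, another proprotein convertase gene, rose to 2.54 ± 0.23 FPKM, against 0.691 ± 0.051. Vdr, the vitamin D receptor gene, had 46.6, 49.5 and 46.8 FPKM in PTH and 13.8, 13.7 and 13.6 FPKM in Control (change 1.72, limma adjusted p = 8.41e-08).

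Relatives of Fam20c were called in both directions. Of 6 Golgi secretory-pathway kinase genes 5 were tested, 3 rose, 1 fell and Pkdcc was not called (median 0.088). Fam20a, which encodes a pseudokinase that binds FAM20C and raises its activity, had 48.8, 42.5 and 48.0 FPKM in PTH and 10.7, 9.31 and 10.03 FPKM in Control (change 2.10, limma adjusted p = 7.24e-07). Its lowest PTH library was thus far above every Control library, in the opposite direction to Fam20c. Fjx1 rose to 3.63 ± 0.075 FPKM, against 1.60 ± 0.19 in Control, and Fam198b fell to 8.05 ± 0.17 FPKM, against 12.5 ± 0.32 in Control. Fam20b, a kinase gene of proteoglycan assembly, was called higher at a change of 0.088 (limma adjusted p = 0.0464), below the 0.15 of all entries, and turned lower without a call under median of ratios (-0.068) and quantile scaling (-0.067). Its call was also lost with TPM (0.022, limma adjusted p = 0.666) and without the variance trend of limma (limma adjusted p = 0.060). The same held without PTH replicate 1 or 2 or Control replicate 2 or 3, at a limma adjusted p of up to 0.141.

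Most matrix proteins that bind mineral, several of them FAM20C substrates, fell as well. Of 9 listed 7 were tested, 5 fell, 1 rose and Spp1, the osteopontin gene, was not called (median -1.63). Dmp1 fell to 3.64 ± 0.24 FPKM in PTH, against 827 ± 24.2 in Control, and Mepe to 1.61 ± 0.20 FPKM, against 208 ± 4.01. Ibsp, the bone sialoprotein gene, had 1100 ± 128 FPKM in PTH and 14703 ± 161 in Control, and Bglap, the osteocalcin gene, 3870 ± 348 FPKM in PTH and 11955 ± 391 in Control. Bglap is uncertain because near-identical copies share fragments. Mgp, an inhibitor of calcification, rose to 239 ± 14.9 FPKM, against 140 ± 22.2 in Control.

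**Figure D3:**
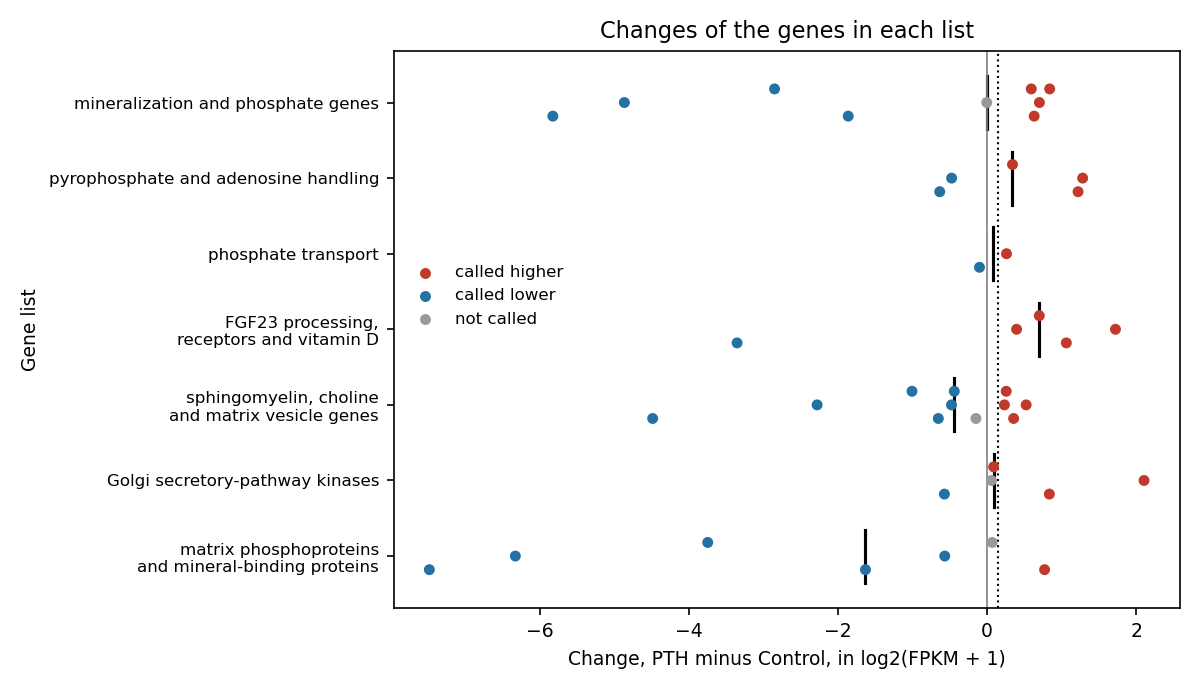
Change in log2(FPKM + 1), PTH minus Control, of each tested gene by list (1 point per gene, red called higher, blue called lower, grey not called), with a black bar at the list's median and a dotted line at the median of all entries (0.15). The 9 mineralization and phosphate genes reach from -5.82 to 0.84, and matrix phosphoproteins have the lowest median, at -1.63.

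The order of the 10 genes by level differed between the groups. In PTH Alpl was followed by Ank, Slc20a1, Enpp1, Slc20a2, Phex, Fam20c, Phospho1, Smpd3 and Fgf23, and only Fam20c and Phospho1 overlapped between neighbors. In Control Alpl was followed by Phospho1, Smpd3, Phex, Ank, Fam20c, Enpp1, Slc20a1, Slc20a2 and Fgf23, and only Enpp1 and Slc20a1 overlapped. The gap between Alpl and the next gene was 10.1-fold in PTH and 6.99-fold in Control. Phospho1 was at 0.00372 ± 0.00029 of the Alpl level in PTH and at 0.143 ± 0.0014 in Control (exact two-sided permutation p = 0.1), so Phospho1 was lower relative to Alpl in PTH.

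The directions of the 8 called genes were the same under each scaling, and with Alpl 4 genes were called higher and 5 lower in all 3 rescaled fits. Of all entries 43.3% were called higher and 27% lower with TPM, 34.2% higher and 34.1% lower with median of ratios, and 38.7% higher and 30.5% lower with quantile scaling. Relative to the median of all entries the changes were -5.97 for Smpd3, -5.01 for Phospho1, -2.995 for Phex, -2.01 for Fam20c, -0.15 for Alpl, 0.45 for Ank, 0.49 for Slc20a2, 0.56 for Enpp1 and 0.69 for Slc20a1. The share of higher calls among all called entries was 68.2% as deposited, 61.7% with TPM, 55.9% with quantile scaling and 50.0% with median of ratios. Actb and Gapdh, often used as reference genes, rose by 0.53 and 0.78 on this scale. Under median of ratios the 4 rises lay between 0.43 for Ank and 0.69 for Slc20a1.

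**Figure D4:**
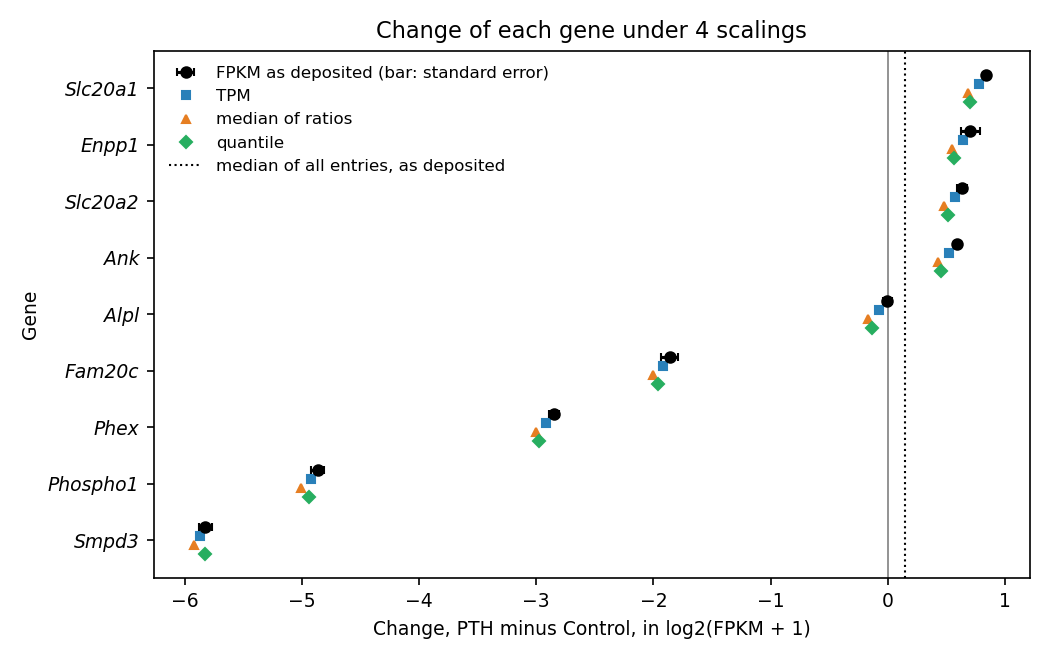
Change in log2(FPKM + 1), PTH minus Control, of the 9 tested genes (n = 3 each) as deposited, with the standard error from limma, and after TPM, median of ratios and quantile scaling, with a dotted line at the median of all entries as deposited (0.15). All 4 rises and 4 falls keep their side of 0, and Alpl lies between -0.17 and -0.0044.

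Markers of several cell types differed between the groups as well. All 7 tested adipocyte markers fell, and the 8 listed summed to 72.9 to 152 FPKM in PTH and 534 to 755 FPKM in Control. Of 5 tested chondrocyte markers 4 fell and Sox9 rose, with a summed level of 54.6 to 68.3 FPKM in PTH and 184 to 204 FPKM in Control, while Col9a1 and Matn1 were near 0 in both groups. Of 5 skeletal muscle markers 1 was tested, Acta1, which rose to 18.4 ± 0.44 FPKM in PTH, against 12.3 ± 0.19 in Control. Myod1, Myog, Ckm and Myh3 were at most at 0.043 FPKM in any library. Of 6 osteoblast markers 5 were tested, 4 fell and Alpl, itself among the genes described here, was not called. The part of these cell types in the falls of Smpd3, Phospho1, Phex and Fam20c was not tested.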

How the data were processed

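Polyadenylated RNA libraries were made with a TruSeq kit that does not mark strand, barcoded and run on 1 lane. Per the labels, the authors used CASAVA 1.8, Bowtie2, TopHat, SAMtools and Cuffdiff on build mm9, with other versions, annotation and strand setting not given in the sources used here. The authors deposited 1 table of gene FPKM with error bounds per library, and Cuffdiff group values, fold changes, p-values and q-values, which were not used. Coordinates are mm9, 1-based, with the listed start read as 0-based.

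Entries marked HIDATA or FAIL in any library were left out. limma 3.58.1 (R 4.3.3, lmFit and eBayes with a variance trend) was run on log2(FPKM + 1) with Benjamini-Hochberg adjustment over every entry whose mean FPKM reached 1, and was tested on simulated data. Changes are on that scale, which understates low genes. Implied fragments are the squared ratio of FPKM to its standard error, taken as the half-width of the bounds divided by 2. The median half-width was 7.04% to 7.33% of FPKM in PTH and 8.27% to 9.68% in Control. Ratios within libraries were compared by exact two-sided permutation (SciPy 1.17.1).

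The members, lists and tests were chosen with earlier results of these data known. The text names the 10 members, up to 4 called genes with the largest change per list, Actb and Gapdh. Chkb, Pkdcc, Spp1, Sgms1, Smpd2, Smpd4, Anxa2, Anxa5, Mgp, Abi3, AI316807, the cell markers and genes below the filter were named after their values were seen. Alternatives covered the pseudocount, the filter, scaling, the variance trend, the replicate block and each library left out.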

Additional observations from a re-analysis of the deposited data

How the results depend on the processing

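The fit was repeated under 15 alternatives. As deposited 4 of the 10 genes were called higher and 4 lower, and leaving out each library in turn gave 4 and 4 each time. Over all entries 5967 were called higher and 2783 lower, and 5469 to 5813 and 2596 to 2789 with a library left out. The change of Alpl turned slightly positive without Control replicate 1 (0.0061) or Control replicate 3 (0.014) and stayed without a call, over a range of -0.034 to 0.014 with a library left out. Fam20b turned lower under median of ratios (-0.068) and quantile normalization (-0.067). Enpp3, Enpp6, Fjx1 and Pcsk5 are below the filter of a mean FPKM of at least 5.

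Samples share only their replicate number. Deviations from the group means correlated at -0.079, 0.0015 and -0.038 for numbers 1, 2 and 3, and no sample correlated best with its own number. With the replicate block 5851 entries were called higher and 2725 lower, the 10 genes had 4 calls in each direction, and Xpr1 (limma adjusted p = 0.0604) and Fam20b (0.0501) lost theirs. Within-library ratios under the block had the same differences, for example 0.76 for Enpp1 over Alpl (exact p = 0.25, the smallest that 3 pairs allow).

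Smpd3 in PTH (38 to 49 implied fragments a library) and Fgf23 are limited by depth.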
